A study of Homo sapiens with 40 samples.

Results

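BEAS-2B cells, an immortalised line of human bronchial epithelial cells, were exposed for 2 h to 1 µM of ONO-AE1-329 (ONO below), a compound that activates EP4, one of the receptors of prostaglandin E2, and their RNA was compared with that of vehicle-treated cells. The comparison set 4 libraries of ONO 1 µM against 4 of vehicle, 8 of the 40 of the series. They were chosen by their treatment labels, and every gene of the table was covered. The filter on low values and the variance behind the p-values of the main fit came from all 40 libraries in 10 groups. Before treatment the cells had reached confluence in medium with serum and then spent a night without serum, and no other agent was present in either group. The labels call this concentration of ONO maximal. A further 3 groups of 4 libraries enter below: the PDE4 inhibitor RNO (roflumilast N-oxide) at 1 µM, ONO 1 µM together with RNO, and 100 nM of vilanterol, a bronchodilator that acts through another receptor coupled to Gs. The remaining groups were ONO at 0.1 nM and at 1 nM, each without and with RNO, and vilanterol with RNO. They entered the filter and the main fit, and their own values are not given. All of this is 1 transformed cell line at 1 time point, and the labels do not state whether the 4 replicates of a group were separate cultures, so the p-values reflect only how these samples vary, which may be technical.

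EP4 couples to the G protein Gs, which switches on adenylyl cyclases, and the cAMP they form activates protein kinase A. The kinase phosphorylates CREB, a transcription factor bound at cAMP response elements (CRE, letters TGACGTCA, or the half-site TGACG), and the genes under such elements answer within the first hours. Phosphodiesterases, PDE4 foremost in airway epithelium, break cAMP down again, and their own genes belong to the response. Cyclic AMP also meets the ERK MAP kinase pathway, which growth factors drive and which sustains short-lived messages such as FOSL1, EGR1, DUSP6 and SPRY4. In the airway, prostaglandin E2 acting on EP4 is known for relaxing smooth muscle and for restraining inflammation.

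The broadest picture was a strong rise of cAMP-responsive genes together with a fall of genes that follow ERK activity, set in many small changes. Both gene lists were drawn up with earlier results of these data known. Of 12591 genes that averaged 1 normalised TPM (a transcript level scaled for length) or more, 908 were called, that is, had a Benjamini-Hochberg adjusted p under 0.05 in limma's test on log2(TPM + 1), which is 7.21% of those tested. Of these 528 were higher with ONO (4.19%) and 380 were lower (3.02%), and the median log2 fold change of all tested genes was -0.00. By the ratio of group means, 77 of the higher genes rose at least 2-fold, 96 rose 1.5-fold to 2-fold and 355 rose by less. Among the lower genes 12 fell at least 2-fold, 34 fell 1.5-fold to 2-fold and 334 fell by less. The highest vehicle library lay below the lowest ONO library, or the reverse, in 447 of the 528 and 288 of the 380, against 8.38% of all tested genes. The summed TPM of the higher genes went from 15634 ± 546 in vehicle to 21479 ± 475 with ONO (SD, n = 4), and that of the lower genes from 17374 ± 452 to 14143 ± 323. Genes called lower had a median vehicle level of 22.5 TPM, above the 14.3 TPM of all tested genes and the 12.1 TPM of the higher genes.

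The count depended on the model more than on any single library. Replicates with the same number deviated together across the groups, which the main fit did not use. A fit with the replicate number as a block called 2090 genes, 1136 higher (9.02%) and 954 lower (7.58%), which included all 908. List counts below stand against the share of all tested genes in the same fit, which was 4.19% higher and 3.02% lower in the main fit. A fit of these 8 libraries alone called 359, with 355 of the 908 among them, and of the genes named below it ended the calls of AJUBA, AKAP1, AREG, BCL3, BID, CCL2, CCL5, CCNB1, CENPA, CKS2, CLDN1, CNN2, COL3A1, CSF1, DUSP10, DUSP14, EPGN, EPHA4, ETV5, FOSL2, GADD45B, GREM1, HBEGF, HES1, IL15, IL16, IRF1, IRS2, ITGA3, ITGAV, ITGB1, MAFG, PTRF, RRM2, SC5D, SMURF2, SPRED1, SRF, TBP, TGFBR1, THBS2, TUBA1C, TXNIP, ZFP36L1 and ZYX. Vehicle replicate 3 stood apart, with an SD of 0.209 around its group mean on the log2 scale against 0.106 to 0.169 in the other 7 libraries. Without it 684 genes were called, 411 higher (3.26%) and 273 lower (2.17%), and 607 of the 908 remained. The higher genes spanned a median of 43.4 kb in the genome and the lower ones 17.2 kb, against 28.9 kb for all tested genes, and without this library the medians were 33.5 and 20.2 kb. Calls of named genes that changed without it are given beside each gene.

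Receptors and the machinery that forms cAMP came first in the pathway and changed little. PTGER4, the gene of EP4, was at 1.69, 1.58, 1.45 and 1.57 TPM in vehicle replicates 1 to 4 and at 1.24, 1.20, 1.36 and 1.16 TPM in ONO replicates 1 to 4. Although these groups did not overlap, the gene was not called (adjusted p = 0.19), and it passed only with the replicate block (adjusted p = 0.042). PTGER2, the related receptor EP2, lay under the mean of 1 TPM, at 0.821 ± 0.0117 TPM in vehicle and 0.884 ± 0.234 TPM with ONO, and was not tested. Of 6 tested genes of Gs and adenylyl cyclases limma called none (3 at an unadjusted p under 0.05), and 3 were higher with the block. GNAS, which encodes the Gs subunit that carries the signal, was at 779 ± 4.86 and 793 ± 21.8 TPM (adjusted p = 0.74).

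Cyclic AMP breakdown and anchoring showed clear rises in a few genes. Of 7 tested phosphodiesterases 2 were called, both higher. PDE4D was at 1.90, 2.74, 1.88 and 2.20 TPM in the vehicle libraries and at 9.64, 9.07, 9.23 and 10.4 TPM with ONO, a 4.39-fold rise (adjusted p = 3.4e-15). PDE4B went from 1.01, 1.10, 0.850 and 0.998 TPM to 3.27, 2.96, 2.60 and 2.25 TPM, 2.80-fold (adjusted p = 6.5e-09). In both genes every ONO library exceeded every vehicle library by a wide margin, and PDE4D was nearly the same in all 4 ONO libraries. PDE4A stayed at 1.55 to 1.89 TPM in vehicle and 1.45 to 1.88 TPM with ONO (adjusted p = 0.92), and PDE4C lay under the mean of 1 TPM at 0.464 ± 0.0766 and 0.430 ± 0.0555 TPM. Among 11 genes of protein kinase A, its inhibitors and other cAMP effectors 2 were called (AKAP12 alone when only the 8 libraries were fitted), and both encode anchoring proteins that hold the kinase in place. AKAP12 was at 39.1, 47.2, 32.9 and 42.5 TPM in vehicle and 84.1, 78.4, 94.8 and 92.5 TPM with ONO, 2.16-fold higher (adjusted p = 1.4e-08), and AKAP1 rose from 19.5 ± 1.02 to 22.4 ± 1.14 TPM (adjusted p = 0.0035).

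Genes that limit G protein signalling moved in opposite directions. RGS2, which speeds the shut-off of G proteins of the Gq class, was at 6.38, 6.22, 7.04 and 5.69 TPM in vehicle and 66.1, 47.6, 29.8 and 45.8 TPM with ONO, 7.47-fold higher (adjusted p = 2.6e-11). The ONO libraries differed among themselves, with replicate 1 highest and replicate 3 lowest, yet the lowest lay several times above every vehicle library. RGS4, of the same family, fell from 5.78, 4.77, 5.43 and 4.41 TPM to 1.79, 1.08, 1.17 and 0.871 TPM, 4.16-fold (adjusted p = 1e-10), and RGS3 from 19.6 ± 1.09 to 14.3 ± 1.21 TPM (adjusted p = 0.00034). These were the 3 calls among 13 tested genes of receptor desensitisation, arrestins and receptor kinases included. In the list of CREB itself, its coactivators and the SIK kinases, 2 of 14 rose and none fell, and 4 rose with the block. Both were kinases that hold the CREB coactivators back. The entry LOC102724428/SIK1, which joins SIK1 with a near-identical copy, was at 38.5, 37.1, 19.4 and 26.4 TPM in vehicle and 156, 109, 69.8 and 97.8 TPM with ONO, 3.56-fold higher (adjusted p = 9.5e-07), and reads of the 2 copies could not be told apart. SIK2 rose from 7.81 ± 1.58 to 12.3 ± 0.860 TPM (adjusted p = 9.9e-06), whereas CREB1 was at 7.12 ± 0.424 and 6.90 ± 0.607 TPM (adjusted p = 0.75).

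Early targets of CREB showed the largest rises. Of 24 tested genes of this list 19 were called higher and none lower, against 4.19% of all tested genes, and the median log2 fold change was 0.96. The count was 18 to 19 when any of the 8 libraries was left out and 21 with the block. The list was drawn up with earlier results of these data known, so its direction is not independent evidence. NR4A3, an orphan nuclear receptor, was at 0.980, 2.07, 1.09 and 1.26 TPM in vehicle and at 41.3, 35.3, 31.7 and 36.4 TPM with ONO, 26.8-fold higher (log2 fold change 4.00, SE 0.18, adjusted p = 4.4e-18). Its relative NR4A2 went from 0.467, 1.11, 0.565 and 0.471 TPM to 18.6, 12.9, 9.86 and 12.8 TPM, and NR4A1 from 13.3, 23.5, 14.6 and 18.2 TPM to 71.3, 57.9, 47.8 and 62.7 TPM. For all 3 receptors replicate 2 was the highest vehicle library and replicate 3 the lowest ONO library, and the groups stayed far apart. NR4A1 began from the highest level of the family and had the smallest ratio, 3.45-fold (adjusted p = 2.1e-07).

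The non-coding RNA LINC00473, known as a cAMP-induced transcript, was at 6.16, 12.9, 7.46 and 11.3 TPM in vehicle and 71.9, 63.8, 64.1 and 74.2 TPM with ONO. The zinc finger gene ZNF331 went from 6.25, 7.54, 6.31 and 6.83 TPM to 83.6, 64.4, 51.3 and 65.2 TPM, and the secreted protein CRISPLD2 from 2.26, 2.30, 1.996 and 2.07 TPM to 14.1, 14.4, 18.4 and 15.6 TPM. ZNF331 and CRISPLD2 varied little in vehicle, whereas the vehicle libraries of LINC00473 differed more, with none near an ONO library. SGK1, a kinase that controls ion channels and cell survival, was at 19.1, 17.7, 22.2 and 14.9 TPM in vehicle and 147, 100.4, 72.3 and 86.4 TPM with ONO, 5.50-fold higher (adjusted p = 1.6e-11). Here too ONO replicate 1 was highest and replicate 3 lowest, as for RGS2 and SIK1, and no library crossed between the groups.

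Smaller rises filled out the list. PER1, a clock gene, went from 11.3 ± 2.49 to 24.1 ± 2.05 TPM (n = 4), 2.13-fold (adjusted p = 9.9e-06). ID3, an inhibitor of helix-loop-helix factors, rose 2.19-fold to 11.2 ± 1.74 TPM (adjusted p = 3.8e-07), and NFIL3, a repressor of the clock, 1.79-fold to 21.7 ± 3.41 TPM (adjusted p = 2e-05). KLF4, a factor that restrains growth and inflammation in epithelia, rose 2.23-fold from 1.56 ± 0.181 TPM (adjusted p = 0.00043). FOSB, an AP-1 subunit, was at 6.86, 7.90, 4.34 and 5.99 TPM in vehicle and 13.5, 9.76, 9.51 and 11.8 TPM with ONO (adjusted p = 0.0042). AREG, a ligand of the EGF receptor, went from 2.69, 3.57, 3.81 and 4.17 TPM to 5.97, 4.64, 5.73 and 8.06 TPM (adjusted p = 0.039). Its groups did not overlap, but the call was lost without vehicle replicate 1 (0.11), 2 (0.054) or 3 (0.064) and without ONO replicate 1 (0.071), 3 (0.069) or 4 (0.17). The 5 members not called were FOS, CREM, CITED2, ID1 and BTG2. CREM, whose short products repress CRE-driven genes, was at 9.08 ± 0.8288 and 10.4 ± 0.902 TPM (adjusted p = 0.098, 0.028 with the block and 0.036 without vehicle replicate 3). BTG2 was at 4.32 ± 1.16 and 5.39 ± 0.915 TPM (adjusted p = 0.44, 0.0081 with the block). FOS, the best-known immediate early gene, was at 2.21 ± 0.323 and 2.14 ± 0.398 TPM after 2 h (adjusted p = 0.94).

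**Figure D1:**
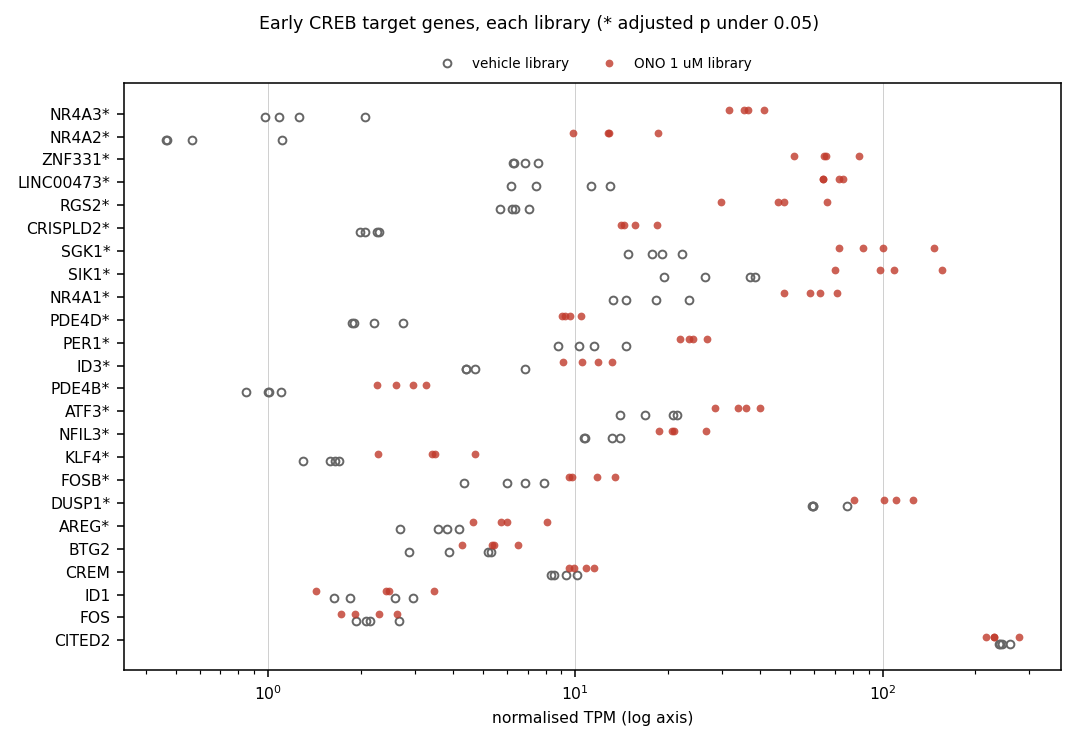
Normalised TPM of the 24 tested early CREB target genes on a log axis, with 1 open grey point for each of the 4 vehicle libraries and 1 red point for each of the 4 ONO 1 µM libraries, ordered by log2 fold change, and a star on the 19 genes called. The red points of NR4A3, from 31.7 to 41.3 TPM, lie far to the right of its grey points, from 0.980 to 2.07 TPM, while the points of FOS and CITED2 are mixed.

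Promoters of 5 genes of this list that rose are shown because they hold the letters that CREB binds, cut from RefSeq promoters (250 bases before to 50 after the start of the gene, build GRCh38.p14, which is later than the authors' build). Up to 12 promoters were given for a gene, and only the first listed of each gene was used. Each window runs 5′ to 3′ on the strand of its gene, from 20 bases before the first half-site to 20 bases after the last, and capitals mark TGACG or its reverse complement, which join to TGACGTCA where 2 of them overlap.
NR4A3: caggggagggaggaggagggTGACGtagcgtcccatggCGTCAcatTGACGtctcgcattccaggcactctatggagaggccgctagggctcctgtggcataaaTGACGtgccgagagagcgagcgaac
LINC00473: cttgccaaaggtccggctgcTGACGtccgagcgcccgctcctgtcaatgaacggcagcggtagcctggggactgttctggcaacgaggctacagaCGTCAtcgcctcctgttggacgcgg
DUSP1: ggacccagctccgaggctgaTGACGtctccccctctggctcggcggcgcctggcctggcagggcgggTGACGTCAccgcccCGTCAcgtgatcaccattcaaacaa
AREG: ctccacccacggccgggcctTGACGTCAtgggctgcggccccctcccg
FOSB: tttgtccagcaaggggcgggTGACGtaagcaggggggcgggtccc
The NR4A3 window (chr9:99821756-99821884, plus strand) held 4 half-sites between 109 and 25 bases before the start. LINC00473 (chr6:165988107-165988226, minus strand) had 2, at 167 and 92 bases before its start. In DUSP1 (chr5:172771282-172771387, minus strand) 4 half-sites lay between 172 and 111 bases before the start, 2 of which formed the single full CRE. AREG (chr4:74445051-74445098, plus strand) held 1 full CRE 65 bases before its start, and FOSB (chr19:45467916-45467960, plus strand) 1 half-site at 60 bases. Of the 23 list members whose promoter was given, 13 held TGACG on either strand and 2 held the full CRE. The shares were 35.2% and 3.37% of the 9938 tested genes with a promoter. They were 25% and 1.98% of all 27305 genes with a promoter given, tested or not. No TGACG stood in the promoters of NR4A1, CRISPLD2, SGK1, PDE4D, PDE4B, PER1 and ATF3, genes that rose as well. This says only that the letters are not in this stretch of the first listed promoter of each gene. A comparison of all higher with all lower genes was not drawn, because some genes of each set had no promoter given. A promoter was given for 81.6% of the higher, 77.9% of the lower and 78.9% of the tested genes. The same gap lies behind the shares of tested genes above, whereas 95.8% of the CREB list had a promoter given. That list was drawn up as CREB targets, so its count of sites is a description only.

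DUSP1, whose promoter is shown above, inactivates stress-activated MAP kinases and limits inflammatory messages. It was at 58.8, 76.7, 59.4 and 59.5 TPM in vehicle and 125, 101, 80.5 and 111 TPM with ONO, 1.64-fold higher (adjusted p = 0.0007). Of 9 tested MAP kinase phosphatases 3 were called higher and 3 lower. DUSP8 rose from 7.75 ± 1.25 to 12.6 ± 1.57 TPM (adjusted p = 0.0014) and DUSP10 from 1.16 ± 0.155 to 1.94 ± 0.462 TPM (adjusted p = 0.0068, 0.051 without ONO replicate 4). These 3 act mainly on the stress kinases p38 and JNK. DUSP5 and DUSP6, which act on ERK, were both lower. DUSP5 was at 64.6, 78.1, 77.4 and 66.7 TPM in vehicle and 44.7, 37.5, 39.1 and 43.7 TPM with ONO, 1.74-fold lower (adjusted p = 4.6e-06), and DUSP6 went from 5.35, 6.49, 5.44 and 5.55 TPM to 2.19, 1.89, 2.84 and 2.85 TPM, 2.34-fold lower (adjusted p = 6e-09). DUSP14 fell from 85.8 ± 3.97 to 73.2 ± 5.56 TPM (adjusted p = 0.0022). The remaining tested members, DUSP4, DUSP7 and DUSP16, were not called.

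Genes that follow ERK activity formed the clearest group of falls. Of 21 tested genes of this list 16 were called lower, against 3.02% of all tested genes, 1 was called higher, and the median log2 fold change was -0.44. The 16 were called with each of the 8 libraries left out in turn, and 14 were called when the 8 libraries were fitted alone. Like the CREB list, this list was drawn up with earlier results of these data known, so its direction is not independent evidence. EGR1, an immediate early zinc finger factor, was at 22.6, 22.7, 15.7 and 15.1 TPM in vehicle and 6.43, 6.32, 6.96 and 6.42 TPM with ONO, 2.91-fold lower (adjusted p = 3e-08). Vehicle replicates fell into a higher and a lower pair, and the 4 ONO libraries lay close together below both. FOSL1, an AP-1 subunit that depends on sustained ERK signalling, went from 162, 144, 127 and 130.3 TPM to 61.1, 47.4, 50.2 and 59.2 TPM, 2.58-fold lower (adjusted p = 4.8e-10). SPRY4, a feedback inhibitor of receptor tyrosine kinases, went from 2.76, 3.38, 2.03 and 2.44 TPM to 1.04, 1.01, 1.13 and 1.06 TPM, 2.50-fold lower (adjusted p = 1.5e-06).

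IER3, a survival gene of the immediate early class, was at 104, 93.2, 77.1 and 71.3 TPM in vehicle and 60.7, 35.1, 33.8 and 36.4 TPM with ONO (adjusted p = 0.0014), with ONO replicate 1 well above the other 3 but still under every vehicle library. CCND1, cyclin D1 of the G1 phase, went from 151, 127, 101 and 114 TPM to 100.2, 70.0, 72.3 and 68.3 TPM (adjusted p = 0.0059), and its highest ONO library lay just under its lowest vehicle library. EMP1, an epithelial membrane protein, fell from 90.8 ± 8.06 to 61.0 ± 6.88 TPM (adjusted p = 2.1e-05), and EPHA2, an ephrin receptor, from 68.4 ± 6.69 to 49.9 ± 2.52 TPM (adjusted p = 0.0002). Modest falls were also called for IER5 (1.41-fold), HMGA2 (1.497-fold), the ETS factors ETV4 (1.38-fold) and ETV5 (1.18-fold), PHLDA1 (1.29-fold), SPRED1 (1.16-fold) and MCL1 (1.21-fold), with adjusted p between 3.1e-07 for IER5 and 0.012 for HMGA2. MYC was at 49.9 ± 2.48 and 52.0 ± 6.11 TPM (adjusted p = 0.8) and DUSP4 at 49.2 ± 5.03 and 50.2 ± 8.95 TPM (adjusted p = 0.97). SPRY2 and SPRED2 passed only with the block, SPRY2 lower (0.035) and SPRED2 higher (0.0094). The only member called higher, the ephrin receptor EPHA4, went from 3.34 ± 0.361 to 4.12 ± 0.333 TPM (adjusted p = 0.018) and lost its call without vehicle replicate 3 (0.13), ONO replicate 2 (0.072) or ONO replicate 3 (0.085).

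**Figure D2:**
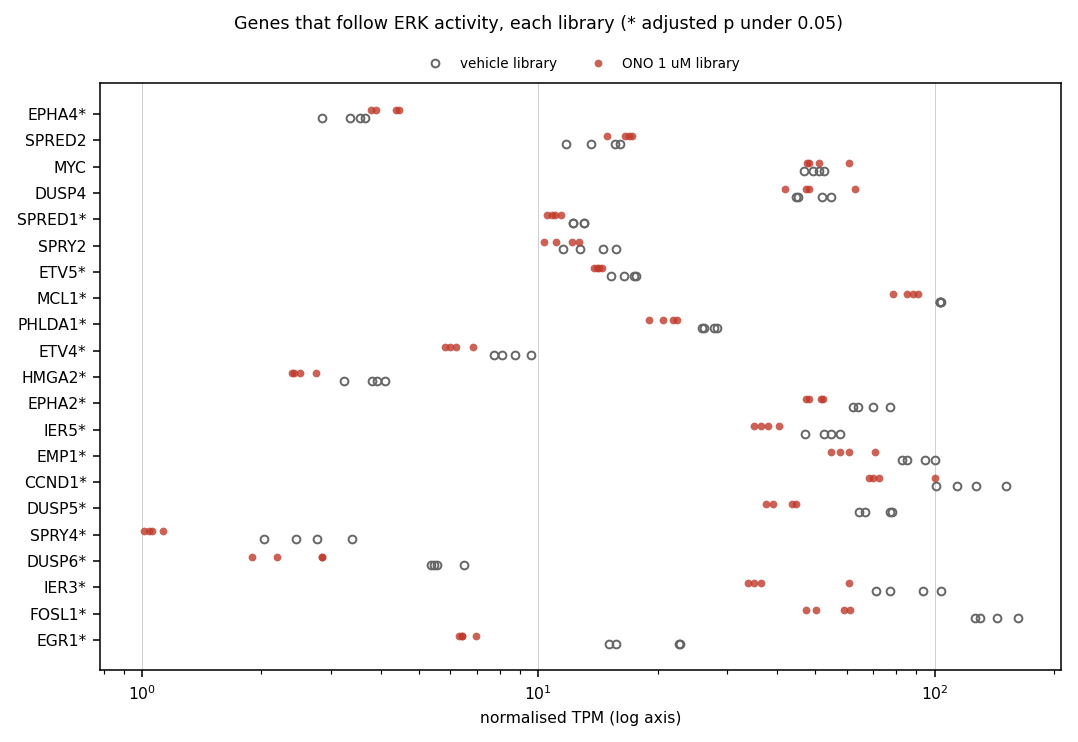
Normalised TPM of the 21 tested genes that follow ERK activity on a log axis, drawn as 1 open grey point for each vehicle library and 1 red point for each ONO 1 µM library, with a star on the 17 genes called. In the 16 genes called lower the red points lie to the left of the grey ones, for FOSL1 at 47.4 to 61.1 TPM against 127 to 162 TPM.

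Subunits of AP-1 moved in both directions. Of 13 tested subunits and partners 4 were called higher and 3 lower. FOSB, FOSL2, ATF3 and MAFK rose: ATF3 from 20.8, 21.4, 14.0 and 16.9 TPM to 39.8, 33.7, 28.5 and 35.8 TPM (adjusted p = 8.4e-06), FOSL2 from 51.1 ± 11.5 to 74.1 ± 5.37 TPM (adjusted p = 0.0002) and MAFK from 39.6 ± 4.19 to 57.1 ± 3.52 TPM (adjusted p = 0.00044). JUN, the classical partner of the FOS proteins, was at 87.7, 93.0, 82.9 and 81.2 TPM in vehicle and 47.7, 40.2, 47.2 and 43.1 TPM with ONO, 1.94-fold lower (adjusted p = 4e-12), with every ONO library far below every vehicle library. FOSL1 and MAFG were the other members that fell. Neither JUNB (16.3 ± 3.33 and 18.8 ± 2.90 TPM, adjusted p = 0.6) nor JUND (80.1 ± 19.6 and 77.8 ± 13.2 TPM, adjusted p = 0.97) was called. In the list of EGR factors, SRF and their partners 1 of 9 was higher and 2 were lower, and the block made it 5 lower. ETS2, an ETS factor, rose from 25.5, 25.8, 17.7 and 18.9 TPM to 62.6, 46.4, 37.4 and 39.99 TPM, 2.12-fold (adjusted p = 2.9e-05). SRF, which binds CArG boxes, fell from 24.2 ± 1.39 to 20.5 ± 1.49 TPM (adjusted p = 0.013), a call lost without vehicle replicate 4 (0.055) or ONO replicate 3 (0.068). NAB2, a corepressor of EGR factors, was at 64.2 ± 6.17 and 44.9 ± 8.52 TPM (adjusted p = 0.092, 4.5e-06 with the block).

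Promoter windows of 3 genes that fell are given for comparison with those above, again 5′ to 3′ with 20 bases on each side. Capitals mark TGAGTCA, the AP-1 site read on this strand, in F3 and EMP1 and the CArG boxes of SRF in EGR1.
F3: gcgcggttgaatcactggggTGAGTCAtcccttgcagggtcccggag
EMP1: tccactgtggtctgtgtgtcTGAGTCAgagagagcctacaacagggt
EGR1: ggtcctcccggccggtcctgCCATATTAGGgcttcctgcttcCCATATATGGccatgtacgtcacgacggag
In F3 (chr1:94541943-94541989, minus strand) the AP-1 site began 210 bases before the start, and in EMP1 (chr12:13196531-13196577, plus strand) 175 bases before it. EGR1 (chr5:138465354-138465425, plus strand) held CArG boxes at 105 and 83 bases. Of the promoters of the 9938 tested genes 2.84% held TGACTCA or its reverse complement and 0.986% a CArG box. Of those of all 27305 genes with a promoter given, tested or not, 4.92% and 1.29% did. The CArG box was searched after these values were seen. Of the 296 lower genes with a promoter 24 held an AP-1 site, and for the reason given above no comparison with the higher genes was drawn. The promoter of EGR1, whose message fell, also held 2 TGACG half-sites.

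Targets of YAP and TEAD, the cofactors that read cell shape and density, gave 1 rise and 4 falls among 17 tested genes. With the block 4 rose and 5 fell, and 2 rose without ONO replicate 3. CYR61, a matricellular protein, was at 563, 580.1, 517 and 509 TPM in vehicle and 396, 343, 337 and 354 TPM with ONO, the largest fall in TPM of any gene called (1.52-fold, adjusted p = 2.7e-06). F3, the tissue factor that starts clotting, went from 295, 262, 234 and 222 TPM to 203, 134, 138 and 141 TPM (adjusted p = 0.00069), with ONO replicate 1 above the other 3. ANKRD1 fell from 54.8 ± 1.56 to 39.8 ± 4.08 TPM (adjusted p = 0.00011). AJUBA was called lower at 1.08-fold (adjusted p = 0.033) with overlapping groups, and lost the call in 5 of the 8 fits that left out a library (adjusted p up to 0.14, without ONO replicate 3, and 0.064 without vehicle replicate 3). LATS2, the kinase that switches YAP off, rose from 37.0, 45.2, 30.2 and 37.0 TPM to 93.0, 93.6, 81.3 and 91.0 TPM, 2.40-fold (adjusted p = 1.5e-13), and no ONO library came near the vehicle range. CTGF, the other classical target, was at 213 ± 49.6 and 189.7 ± 31.4 TPM (adjusted p = 0.76).

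Of 24 tested genes of TGF-beta and BMP signalling 6 were called higher and 2 lower, 8 and 4 with the block. The ubiquitin ligase SMURF2 was called lower (adjusted p = 0.012) but not without vehicle replicate 1 (0.066) or 2 (0.054), which left 1 gene lower. TGIF1, a corepressor of SMAD factors, rose from 25.3, 26.8, 32.1 and 29.4 TPM to 49.7, 45.9, 45.6 and 50.9 TPM (adjusted p = 1.9e-07). PMEPA1, which also damps SMAD signalling, rose from 3.01 ± 0.302 to 4.97 ± 0.418 TPM (adjusted p = 3.3e-05), and SMAD3 from 26.4 ± 1.02 to 32.0 ± 1.30 TPM (adjusted p = 0.00034). The receptor TGFBR1 rose 1.22-fold (adjusted p = 0.0038). GREM1, a secreted BMP antagonist, went from 172 ± 8.57 to 199 ± 18.4 TPM (adjusted p = 0.025), a call lost in 4 of the 8 fits that left out a library (adjusted p up to 0.15, without ONO replicate 1).

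Growth factors changed gene by gene. Of 18 tested growth factors outside the EGF family 3 were called higher (5 with the block) and 4 lower (6 with the block and 2 without vehicle replicate 3). BDNF, a neurotrophin with a CREB-driven gene, was at 10.5, 14.7, 11.7 and 11.8 TPM in vehicle and 28.1, 30.7, 24.2 and 28.3 TPM with ONO, 2.29-fold higher (adjusted p = 3.5e-10). FGF9 rose from 5.49 ± 0.585 to 9.15 ± 0.940 TPM (adjusted p = 7.5e-08) and WNT5A from 5.75 ± 0.789 to 8.20 ± 0.312 TPM (adjusted p = 2e-06). PDGFB, a mitogen for mesenchymal cells, fell from 11.4, 12.6, 9.34 and 10.7 TPM to 5.11, 5.20, 5.14 and 5.92 TPM, 2.06-fold (adjusted p = 4e-09), and FGF5 from 16.4 ± 2.24 to 10.1 ± 0.571 TPM (adjusted p = 4.3e-08). Neither overlapped between groups. PDGFA was at 11.8 ± 2.40 and 6.66 ± 1.41 TPM (adjusted p = 0.018) and lost its call without vehicle replicate 3 (0.079) or 4 (0.059) and without ONO replicate 1 (0.085) or 2 (0.051).

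Among 11 tested ligands, receptors and feedback genes of the EGF receptor 4 were called higher and 1 lower. LRIG1, which marks the receptor for breakdown, rose from 13.9, 14.1, 11.2 and 12.7 TPM to 21.7, 19.2, 19.6 and 17.3 TPM (adjusted p = 3.4e-07). The ligand HBEGF went from 42.8, 50.3, 31.9 and 39.2 TPM to 30.4, 26.0, 20.8 and 28.1 TPM (adjusted p = 0.011), opposite to AREG, with a call that was lost without vehicle replicate 2 (0.05) or ONO replicate 3 (0.073). EPGN, another ligand, rose from 1.06 ± 0.170 to 1.81 ± 0.3996 TPM (adjusted p = 0.011) and lost its call without ONO replicate 1 (0.06) or 3 (0.057), each of which left 2 genes of the list higher.

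Cytokine genes did not move as a group. Of 10 tested genes of the IL-6 family and its receptors 2 were called higher and 1 lower, 5 and 2 with the block. IL6 was at 4.56, 4.17, 4.86 and 4.33 TPM in vehicle and 24.6, 16.2, 9.43 and 15.9 TPM with ONO, 3.69-fold higher (adjusted p = 9.5e-07). Its vehicle libraries were tight, whereas ONO replicate 1 had well over the level of ONO replicate 3. IL11 went from 26.3, 52.7, 47.9 and 38.7 TPM to 117, 95.0, 102 and 112 TPM, 2.57-fold (adjusted p = 7.5e-06). CLCF1, a further ligand of the family, fell from 15.4 ± 1.20 to 11.7 ± 1.05 TPM (adjusted p = 0.0015), and LIF was at 16.2 ± 4.21 and 11.5 ± 3.63 TPM (adjusted p = 0.26, 0.00066 with the block). SOCS3, the inhibitor that these cytokines induce, rose from 22.5, 21.3, 19.3 and 20.2 TPM to 38.2, 36.2, 43.5 and 49.0 TPM (adjusted p = 4.1e-08), the only call among 8 tested SOCS and PIAS genes, of which 3 were higher with the block and 2 without vehicle replicate 2.

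Among 12 tested cytokines and chemokines outside that family 2 were called higher and 3 lower. CCL2, which draws monocytes, went from 100.4, 134, 133 and 112 TPM to 161, 142, 163 and 181 TPM (adjusted p = 0.0078). The falls of CCL5 (adjusted p = 0.03), CSF1 (0.026) and IL16 (0.047) were lost in 4 or 5 of the 8 fits that left out a library, with the highest adjusted p without ONO replicate 4 for CCL5 (0.15), ONO replicate 2 for CSF1 (0.12, and 0.088 without vehicle replicate 3) and vehicle replicate 2 for IL16 (0.16), and all 3 without ONO replicate 1. IL15 was called higher (0.019) and lost its call without vehicle replicate 1 (0.079) and ONO replicates 3 (0.092) and 4 (0.065). Of 16 tested NF-kB subunits and inhibitors 3 were called higher and none lower. REL, a subunit prominent in immune cells, was at 2.47, 2.91, 1.05 and 2.26 TPM in vehicle and 5.90, 5.87, 5.88 and 6.36 TPM with ONO, 2.76-fold higher (adjusted p = 1.2e-08), and its low vehicle value was that of replicate 3 (1.4e-08 without it). NFKBIZ, a nuclear protein of the inhibitor family, rose from 2.11 ± 0.194 to 3.05 ± 0.239 TPM (adjusted p = 0.00031), while NFKBIA, the classical readout of NF-kB activity, was at 15.3 ± 2.11 and 15.5 ± 1.39 TPM (adjusted p = 0.93). BCL3 was called at 0.045 and lost the call without vehicle replicate 1 (0.15), 3 (0.13) or 4 (0.059) and without each of the ONO libraries (up to 0.14).

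Glucocorticoid-inducible genes share several members with the CREB targets. Of 16 tested 6 were called higher and 2 lower. All but 1 of the 6 (PER1, CRISPLD2, DUSP1, SGK1, RGS2) also stand in the CREB list, and the remaining one, KLF9, rose from 5.47 ± 1.01 to 9.36 ± 1.63 TPM (adjusted p = 0.0031). TSC22D3, a defining glucocorticoid target, was at 3.80 ± 0.310 and 4.56 ± 0.376 TPM (adjusted p = 0.3). GADD45A, a stress gene, fell from 94.0, 98.5, 91.4 and 97.8 TPM to 61.0, 55.5, 52.4 and 66.4 TPM (adjusted p = 6.7e-06) and GADD45B from 87.9 ± 7.99 to 69.9 ± 7.15 TPM (adjusted p = 0.003). In the clock 3 of 19 genes were called, all higher (5 with the block and 5 without vehicle replicate 1): PER1, NFIL3 and the kinase CSNK1E, from 55.9 ± 2.97 to 70.5 ± 1.56 TPM (adjusted p = 2.2e-05). Of 17 Kruppel-like factors and CCAAT-binding proteins 2 rose (5 with the block) and 3 fell (4 with the block). KLF10, an early gene of TGF-beta and ERK signalling, was at 81.7, 74.8, 34.3 and 54.7 TPM in vehicle and 25.2, 18.9, 14.9 and 25.5 TPM with ONO, 2.91-fold lower (adjusted p = 0.00043), with vehicle replicate 3 the nearest to the ONO range. KLF5 and KLF6 fell 1.27-fold and 1.23-fold (adjusted p = 0.00014 and 6e-05).

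Rises outnumbered falls among genes of glucose storage and uptake. Of 19 tested genes of glycogen handling, arrestin-domain proteins and their regulators 7 were called higher and 1 lower, 8 and 2 with the block. PPP1R3C, which brings phosphatase to glycogen and so promotes its synthesis, was at 3.54, 3.24, 4.19 and 3.60 TPM in vehicle and 16.2, 13.6, 12.2 and 13.3 TPM with ONO, 3.79-fold higher (adjusted p = 1.1e-14). PPP1R3B, with the same role, went from 3.02, 2.79, 2.73 and 2.55 TPM to 7.53, 5.89, 6.15 and 6.25 TPM, 2.33-fold (adjusted p = 1.7e-12). All 4 ONO libraries of both genes exceeded every vehicle library. The glucose transporter SLC2A3 rose from 19.0, 23.4, 21.3 and 23.4 TPM to 42.9, 45.5, 50.6 and 55.1 TPM (adjusted p = 4.8e-06), ARRDC3 from 9.33 ± 0.937 to 17.5 ± 3.06 TPM (adjusted p = 8.4e-05) and the glycolytic regulator PFKFB3 from 13.6 ± 0.747 to 18.1 ± 0.826 TPM (adjusted p = 7.7e-05). IRS2, which carries the insulin signal, rose 1.22-fold (adjusted p = 0.00055). TXNIP, which restrains glucose uptake, fell from 61.1, 65.6, 71.0 and 74.4 TPM to 32.9, 48.0, 54.4 and 49.6 TPM (adjusted p = 0.017), a call lost without vehicle replicate 3 (0.052) or 4 (0.055) and without ONO replicate 1 (0.11).

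SLC7A5, the large neutral amino acid transporter, was at 251, 217, 189 and 195 TPM in vehicle and 447, 358, 378 and 369 TPM with ONO (adjusted p = 1.3e-09), and SLC38A2 went from 147, 154, 159 and 151 TPM to 262, 249.8, 278 and 250.3 TPM (adjusted p = 2.5e-11). In neither did a vehicle library reach the ONO range. Of 21 tested genes of ATF4 and the unfolded protein response 6 were called higher and 3 lower. With the block 11 were higher and 4 lower, and 1 was lower without vehicle replicate 3. DDIT4, an inhibitor of mTORC1, rose from 15.1, 18.4, 16.7 and 16.3 TPM to 54.3, 42.3, 32.3 and 39.6 TPM, 2.53-fold (adjusted p = 3.2e-08), and HERPUD1, of protein quality control in the endoplasmic reticulum, from 36.4 ± 1.99 to 51.6 ± 5.18 TPM (adjusted p = 1.6e-06). DDIT3, which encodes the stress factor CHOP, fell from 18.8 ± 2.04 to 14.3 ± 1.20 TPM (adjusted p = 0.01, 0.07 without vehicle replicate 3). PPP1R15A, whose product reverses the translation block of stress, fell from 59.4 ± 6.49 to 40.9 ± 5.22 TPM (adjusted p = 0.0084, 0.059 without ONO replicate 3, which left 1 gene of the list lower). ODC1, the first enzyme of polyamine synthesis and a long-known cAMP target, rose from 132, 119, 135 and 119.7 TPM to 228, 178, 189 and 185 TPM (adjusted p = 3.3e-08). PTGES, the last enzyme of prostaglandin E2 synthesis, was the only call among 7 tested genes of prostaglandin synthesis and clearance, from 2.85 ± 0.413 to 4.997 ± 0.629 TPM (adjusted p = 8.9e-06).

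Among surface proteins only rises were called. Of 17 tested genes of this kind 6 were called higher and none lower, and with the block 8 were higher and 2 lower. TM4SF1, a tetraspanin-like protein of migrating and endothelial cells, was at 45.8, 48.9, 57.5 and 43.3 TPM in vehicle and 249, 207, 229 and 218 TPM with ONO, 4.62-fold higher (adjusted p = 9.8e-18). CD200, a ligand that quiets myeloid cells, went from 1.17, 1.85, 1.61 and 1.86 TPM to 8.99, 9.68, 9.08 and 10.1 TPM, and CD24, a small glycoprotein with near-identical pseudogenes whose reads could be shared, from 22.8, 16.3, 16.6 and 14.3 TPM to 96.1, 69.6, 71.3 and 60.3 TPM. These 3 rose over 4-fold and did not overlap. CD274, which encodes the T cell inhibitor PD-L1, rose from 2.23, 2.65, 1.41 and 2.26 TPM to 4.70, 3.99, 3.81 and 4.10 TPM, 1.94-fold (adjusted p = 6.1e-05), and CD55, which protects cells from complement, from 50.2 ± 2.08 to 66.7 ± 3.49 TPM (adjusted p = 3.2e-08). ULBP2, a ligand of an activating receptor of natural killer cells, rose 1.51-fold (adjusted p = 0.011, 0.06 without vehicle replicate 1).

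Of 15 tested genes of epithelial junctions and keratins 2 were called higher (KRT17 and CLDN1) and 1 lower (KRT18). KRT17, an intermediate filament protein of basal and activated epithelium, had the largest rise in TPM of all genes called: 325, 333, 283 and 289 TPM in vehicle and 1067, 845, 833 and 937 TPM with ONO, 2.99-fold (adjusted p = 1.1e-14). KRT18, of simple epithelia, fell from 369, 373, 391 and 316 TPM to 285, 243, 287 and 252 TPM (adjusted p = 0.00018), and its partner KRT8 was at 425 ± 40.4 and 341 ± 49.1 TPM (adjusted p = 0.091, 8.9e-08 with the block and 0.034 without ONO replicate 1). CLDN1, a tight junction protein, was at 12.3, 14.6, 13.2 and 15.6 TPM in vehicle and 16.6, 16.4, 15.3 and 17.2 TPM with ONO, with overlapping groups (adjusted p = 0.026), and lost its call in 5 of the 8 fits that left out a library, with the highest adjusted p without vehicle replicate 1 (0.11) and 0.095 without vehicle replicate 3. Both KRT17 and KRT18 have close pseudogene copies, so part of their TPM may be shared. Of the 11 basal markers only 2 were tested, and of the 8 general epithelial markers 5. The defining epithelial markers CDH1 and EPCAM lay under the mean of 1 TPM, at 0.738 ± 0.153 and 0.312 ± 0.0830 TPM in vehicle, whereas KRT8 and KRT18 were abundant, as was the mesenchymal marker VIM at 1353 ± 59.4 TPM. Summed over 8 tested fibroblast and mesenchymal markers, the TPM was 1965 to 2091 in vehicle and 1948 to 2000.2 with ONO, and only the collagen gene COL3A1 was called, from 1.05 ± 0.220 to 1.70 ± 0.182 TPM (adjusted p = 0.0026). Of 21 tested genes of the extracellular matrix and integrins 4 were called higher (HAS3, THBS2, ITGAV and ITGB1) and 1 lower (ITGA3), against 1 higher and none lower in the 8 libraries alone. HAS3, a hyaluronan synthase, rose from 1.95, 1.73, 1.36 and 1.90 TPM to 3.81, 2.64, 3.40 and 2.42 TPM, 1.77-fold (adjusted p = 0.001), and the other 3 that rose did so by at most 1.15-fold (THBS2). Without vehicle replicate 3 the calls of THBS2 (adjusted p = 0.24) and ITGAV (0.093) were lost. Of 16 SRF and MRTF target genes of the cytoskeleton none was higher and 2 were lower, CNN2 (1.10-fold, adjusted p = 0.017) and ZYX (1.09-fold, adjusted p = 0.026). The block gave 5 lower, and the fits without vehicle replicate 4 and of the 8 libraries alone gave none. A single leukocyte marker and a single ciliated or secretory marker were tested, and neither was called.

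Cell survival genes changed in both directions. Of 15 tested genes of the BCL2 family and caspases 2 were called higher and 3 lower. BCL2L11, the death-promoting protein BIM that ERK keeps low, rose from 9.12, 8.66, 6.53 and 7.11 TPM to 24.9, 20.1, 18.9 and 18.7 TPM, 2.63-fold (adjusted p = 1.1e-11). CASP9, an initiator caspase, rose from 5.90, 5.60, 4.94 and 5.22 TPM to 8.75, 9.46, 13.5 and 10.9 TPM, 1.97-fold (adjusted p = 1.7e-05). The survival genes BCL2L1 and MCL1 fell, BCL2L1 from 95.0 ± 2.03 to 80.7 ± 2.31 TPM (adjusted p = 0.00016) and MCL1 from 103 ± 0.381 to 85.7 ± 5.43 TPM (adjusted p = 0.0016). BID, called lower at 0.011, lost its call without vehicle replicate 3 (0.096) or ONO replicate 3 (0.053). Of 12 tested regulators of mRNA decay and growth arrest 3 were higher and 1 lower, 5 and 3 with the block and 2 lower without vehicle replicate 3. TOB1, which brings deadenylases to messages, rose from 36.7, 36.2, 33.8 and 35.9 TPM to 84.9, 68.7, 56.9 and 64.1 TPM (adjusted p = 3.1e-07), TOB2 from 10.5 ± 1.26 to 15.5 ± 0.967 TPM (adjusted p = 0.0026) and BTG1 from 9.25 ± 0.730 to 14.0 ± 0.914 TPM (adjusted p = 8.5e-08). ZFP36L1, a decay factor for AU-rich messages, fell from 42.1 ± 4.48 to 34.0 ± 2.03 TPM (adjusted p = 0.0025).

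Some mitosis genes were lower, and in bulk RNA fewer cells in mitosis and less message per cell cannot be told apart. Of 34 tested genes of G2 and mitosis 12 were called lower, where 3.02% of all tested genes were, and none higher. Their median log2 fold change was -0.13. The block called 19 lower, where 7.58% of all tested genes were. Fitting the 8 libraries alone left 4, against 0.882% of all tested genes lower in that fit, and leaving out single libraries gave 9 to 13. HJURP, a chaperone of the centromeric histone, was at 44.3, 39.3, 38.4 and 39.5 TPM in vehicle and 26.8, 26.5, 25.5 and 26.7 TPM with ONO, 1.53-fold lower (adjusted p = 3.1e-10). PSRC1, a spindle protein, went from 27.6, 25.4, 31.3 and 27.1 TPM to 19.4, 19.99, 19.2 and 20.7 TPM (adjusted p = 5.9e-09). The kinase PLK1 went from 84.1, 84.8, 82.1 and 76.5 TPM to 67.5, 61.8, 60.1 and 58.0 TPM (adjusted p = 7.3e-05). The ONO libraries of these 3 genes lay below all vehicle libraries. CCNB1, the mitotic cyclin, fell from 202 ± 18.0 to 169 ± 8.25 TPM (adjusted p = 0.0032) and CENPA, the centromeric histone, from 35.0 ± 4.47 to 26.8 ± 2.66 TPM (adjusted p = 0.00035). CDK1, the kinase that CCNB1 activates, was at 157 ± 21.3 and 152 ± 9.91 TPM (adjusted p = 0.77), and TOP2A at 245 ± 14.4 and 245 ± 3.21 TPM (adjusted p = 0.98). Among 18 tested DNA replication genes only RRM2 was called, 1.07-fold higher (adjusted p = 0.0036), and the median was -0.01. The difference between the 2 lists was not tested.

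**Figure D3:**
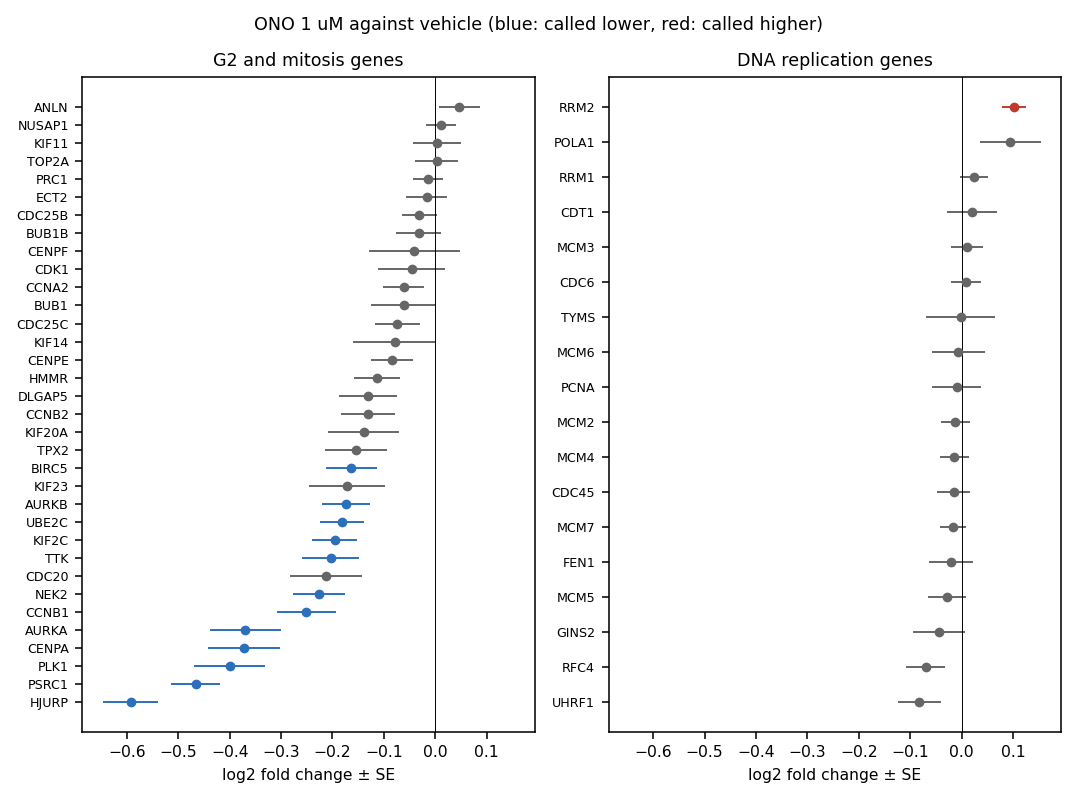
Log2 fold change ± SE of ONO 1 µM against vehicle (4 libraries each) for 34 genes of G2 and mitosis (left) and 18 of DNA replication (right), blue for genes called lower and red for the gene called higher. HJURP lies lowest at -0.59, whereas the replication genes scatter around 0.

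Target genes of p53 gave 3 rises and 2 falls among 19 tested, 5 and 3 with the block. PLK2 rose from 45.7 ± 3.47 to 61.4 ± 6.01 TPM (adjusted p = 0.00054) and the death receptor TNFRSF10B 1.26-fold (adjusted p = 0.0012), while PLK3, an immediate early kinase, fell from 9.50, 9.89, 8.42 and 8.97 TPM to 5.52, 5.90, 5.32 and 6.39 TPM (adjusted p = 2.2e-05). CDKN1A, which encodes p21, was at 68.4 ± 5.79 and 84.1 ± 5.22 TPM with no overlap between the groups (adjusted p = 0.11, 0.00013 with the block).

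Several genes among the largest changes belong to none of these groups, and 1 entry with a microRNA name is not described. AVPI1, a vasopressin-induced gene, was at 33.5, 43.1, 53.3 and 45.7 TPM in vehicle and 127, 129, 138 and 145 TPM with ONO, 3.07-fold higher (adjusted p = 5.9e-09), and CSRP1, a LIM protein of the cytoskeleton, rose from 327 ± 24.2 to 427 ± 29.3 TPM (adjusted p = 0.0032). METTL7B, a methyltransferase of the endoplasmic reticulum, fell from 3.26, 4.24, 4.70 and 3.78 TPM to 1.38, 1.24, 1.26 and 1.18 TPM, 3.15-fold (adjusted p = 1.3e-08). The chromatin protein gene HMGA1, which has pseudogene copies, fell from 213 ± 12.5 to 162 ± 16.6 TPM (adjusted p = 0.002), and PTRF, of caveolae, from 706 ± 12.4 to 653 ± 7.52 TPM (adjusted p = 0.0015, 0.052 with libraries rescaled to equal totals). JAG1, a Notch ligand, rose from 0.609, 0.598, 0.570 and 0.687 TPM to 1.31, 1.17, 1.41 and 1.40 TPM (adjusted p = 3.8e-05), while the Notch target HES1 went from 5.22, 3.49, 1.97 and 2.63 TPM to 1.75, 1.05, 0.683 and 1.40 TPM (adjusted p = 0.027) and lost its call without vehicle replicate 1 (0.1) or 2 (0.051) and without ONO replicate 2 (0.07) or 3 (0.11). ADM, a vasodilator peptide gene, fell from 112 ± 15.4 to 70.0 ± 11.2 TPM (adjusted p = 0.00041). PGBD3, which overlaps ERCC6 (adjusted p = 0.49, 0.024 without vehicle replicate 3) so that reads could be shared, was at 2.20, 1.997, 7.88 and 1.78 TPM in vehicle, was listed at or next to 0 in ONO replicates 1 to 3 and was at 0.634 TPM in ONO replicate 4 (adjusted p = 0.0031). The abundant genes TUBA1C and CKS2 were called with changes of 1.10-fold and 1.17-fold down, and each lost its call in 5 of the 8 fits that left out a library, TUBA1C (0.31) and CKS2 (0.35) most of all without vehicle replicate 3.

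Further lists were taken along for comparison. By limma none of 23 tested ribosomal protein genes (0 at an unadjusted p under 0.05) and none of 8 genes of airway ion transport (4) was called. In the single fit that both had the block and left out vehicle replicate 3, 17 ribosomal genes were higher, as were 932 of all 12591 tested genes. The block alone gave 0 higher, and leaving out vehicle replicate 3 alone gave 1. Of 18 interferon-stimulated genes 1 was called (IRF1, lower, adjusted p = 0.046). Its call was lost in 7 of the 8 fits that left out a library, among them that without vehicle replicate 3 (0.058). Of 9 genes of heat shock and RNA quality only DNAJB1 was called, from 93.1 ± 1.49 to 76.9 ± 5.06 TPM (adjusted p = 0.00025). Of 18 genes of cholesterol synthesis 4 were called higher, where 4.19% of all tested genes were, and 10 with the block, where 9.02% were, but none in the fits of these 8 libraries alone, with or without the block. The largest of these rises was 1.17-fold (SC5D, adjusted p = 0.046, lost in 5 of the 8 fits that left out a library and highest without ONO replicate 3 at 0.16). Of 12 genes often used as references 2 were higher and 1 lower, by at most 1.17-fold (TBP), and none was called in the 8 libraries alone.

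**Figure D4:**
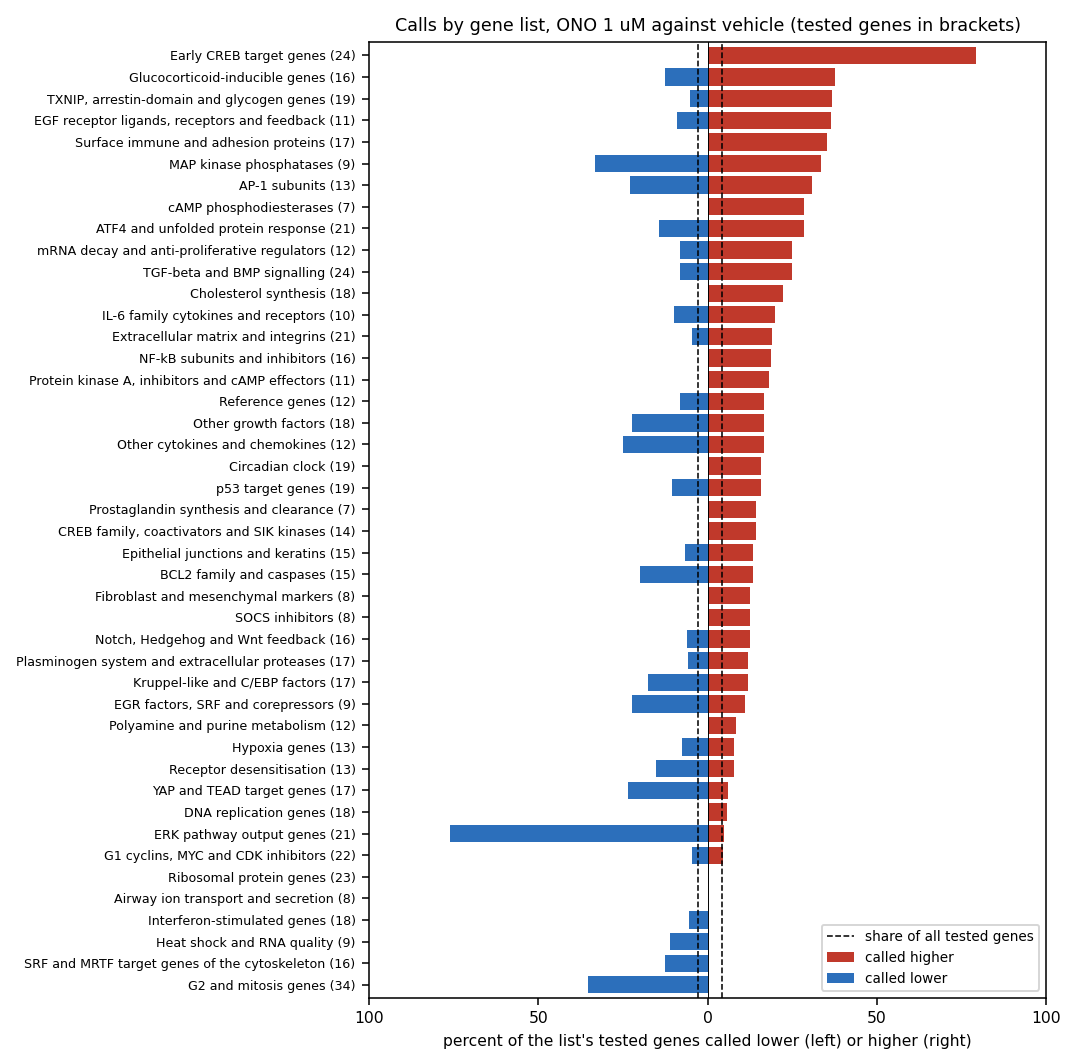
Percent of each list's tested genes called higher (red, to the right) or lower (blue, to the left) with ONO 1 µM against vehicle, for lists with at least 7 tested genes, whose number stands in brackets. The dashed lines mark the share of all tested genes, 4.19% higher and 3.02% lower. The early CREB targets (19 of 24 higher) and the genes that follow ERK (16 of 21 lower) reach farthest on each side. The lists were drawn up with earlier results of these data known.

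The same 1 µM step could be read in 8 other libraries, 4 of ONO with RNO against 4 of RNO alone, which share no sample with the comparison above but differ from it by the PDE4 inhibitor. There 1506 genes were called (12%), 851 higher (6.76%) and 655 lower (5.20%), and 2564 with the block. Of the 528 genes that ONO alone raised, 515 had the same sign, 417 were called higher and none was called lower. Of the 380 that it lowered, 356 had the same sign, 177 were called lower and none was called higher. Over the 528 the median log2 fold change was 0.33 without RNO and 0.42 with it, and over the 380 it was -0.24 without and -0.18 with it. The genes were chosen on the libraries without RNO, so the medians there are a description only. Early CREB targets were called higher in 22 of 24 with RNO, mitosis genes lower in 26 of 34, and genes that follow ERK lower in 9 of 21 and higher in 4.

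**Figure D5:**
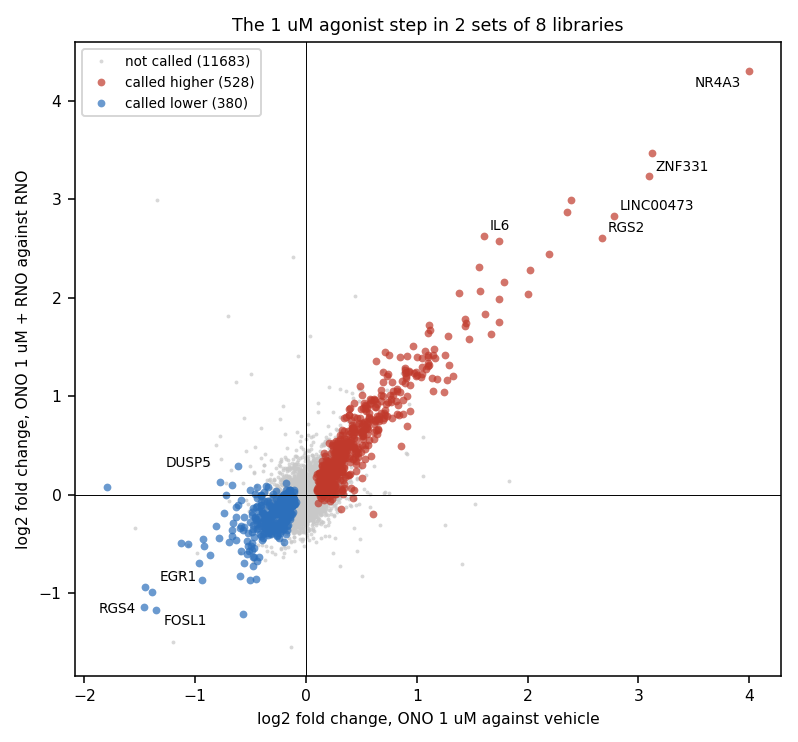
Log2 fold change of the 1 µM agonist step without RNO (horizontal axis, ONO against vehicle) and with RNO (vertical axis, ONO + RNO against RNO), 1 point per tested gene, red for the 528 genes called higher and blue for the 380 called lower without RNO. Red points such as NR4A3 lie along the diagonal, and the blue point of DUSP5 lies near 0 on the vertical axis.

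A test of the difference between the agonist steps without and with RNO called few genes. It called 8 (0.0635% of those tested), 3 of them among the 908, of which DUSP5 and MAP2K3 are described. With 4 libraries a group, a gene not called here may still have answered differently with the inhibitor present. DUSP5 was at 44.6 ± 4.75 TPM with RNO alone and 48.6 ± 3.62 TPM with ONO and RNO, so that its log2 fold change was -0.78 without RNO and 0.13 with it (adjusted p of the difference = 0.013). MAP2K3, a kinase upstream of p38, fell from 80.1 ± 6.73 to 62.0 ± 4.50 TPM with ONO alone and was at 63.8 ± 4.17 and 67.8 ± 2.45 TPM with RNO (0.015). In both genes the mean with RNO alone lay below that of vehicle. For EPHA2 and PFKFB3 the difference just missed the threshold (adjusted p = 0.058 and 0.058).

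Vilanterol at 100 nM, the second agonist that raises cAMP, gave larger responses in many of these genes, with both agonists at concentrations that the labels call maximal. Of the 528 higher genes 159 were lower with ONO than with vilanterol and none was higher, against 1.72% and 0.421% of all tested genes, a count that uses the ONO libraries in both comparisons. NR4A3 was at 73.3 ± 6.05 TPM with vilanterol, NR4A1 at 98.6 ± 15.6 TPM and PDE4D at 15.1 ± 0.385 TPM (adjusted p of the difference from ONO = 0.00063, 0.083 and 0.00019). Of the 380 lower genes 17 were higher and 2 lower with ONO than with vilanterol. FOSL1 was at 39.4 ± 6.76 TPM and EGR1 at 3.48 ± 0.381 TPM with vilanterol (0.039 and 0.0035). Both fell further with vilanterol than with ONO.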

How the data were processed

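The 40 libraries of BEAS-2B RNA were sequenced as strand-specific poly(A) libraries on 1 instrument with 2 kits, per the labels' protocols, and which library was run with which kit is not stated. The authors deposited 1 table of normalised TPM, here treated as a signal scaled by the authors, and kallisto, sleuth, bcl2fastq 2.18.0.12 and GRCh37 (hg19) stand in the submitters' processing notes without their roles. Read depth cannot be taken from TPM, so no counting error is given, and library totals of 956888 to 1091466 TPM say nothing of it. The planned test assumed plain TPM and was kept.

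Genes with a mean of at least 1 over the 40 libraries were tested with limma 3.58.1 (R 4.3.3) on log2(value + 1), with 1 mean for each of the 10 groups, a variance trend and Benjamini-Hochberg adjustment over all genes tested. The steps were tested on simulated data with independent noise and no effect of replicate number. That simulation therefore does not check how the main fit behaves under the pairing described below. On this scale the change of low genes is understated, and folds in the text are ratios of mean TPM. Errors are SDs of 4 libraries. Alternatives changed the pseudocount, the filter, the scaling, the variance model, the libraries and the replicate block. Deviations of vehicle and ONO libraries with the same number correlated at 0.405, 0.154, 0.165 and 0.185. The second principal component lay to 95.0% between replicate numbers. In the fit with the block the numbers of the labels were therefore taken to pair the samples. The main test was planned without a block and ignored this pairing, so a gene it did not call may pass with the block.

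The comparison, its genes and the gene lists were chosen with earlier results of these data known. Genes named were those called without overlap that had the 12 largest log2 rises or the 12 largest log2 falls, the 10 largest rises and falls in TPM, members of the lists, and PTGER4, PTGER2 and the PDE4 genes, and some genes that this rule names are not reported here. MAP2K3 was named after its values were seen. The CArG search was added after the data were seen.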

Additional observations from a re-analysis of the deposited data

Results flagged for a closer look

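In 19 of 364 groups of 4 libraries 1 library stood apart, its gap to the nearest other library taking up more of the range of its group than Dixon's critical value for 4 samples, and chance gives about 1 in 20 groups. In vehicle, replicate 3 was the high library for CENPA (gap 0.872 of the range), CKS2 (0.860), ID3 (0.874) and PGBD3 (0.932). Vehicle replicate 2 was high for DUSP1 (0.964), DUSP6 (0.831) and NR4A2 (0.849), and vehicle replicate 1 was low for NAB2 (0.984). With ONO, replicate 1 was the high library for ARRDC3 (0.850), CCND1 (0.875), F3 (0.896) and IER3 (0.903). ONO replicate 3 was high for EGR1 (0.837) and PMEPA1 (0.862) and low for CTGF (0.871). ONO replicate 4 was high for PDGFB (0.888), REL (0.948) and PGBD3 (1), and ONO replicate 2 was low for CD55 (0.937). The agonist step differed between cells without and with RNO by a log2 difference of 0.91 for DUSP5 and 0.45 for MAP2K3, both past the threshold in the test of the difference.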

How the results depend on the processing

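The count of 908 genes stayed between 684 and 1142 when any of the 8 libraries was left out. It was 2090 with the replicate block, 1803 with the block and without vehicle replicate 3, 359 when only these 8 libraries were fitted and 417 with both the block and these 8 libraries. The share of higher genes among the calls was 58.1%, and 69.1% in the fit of the 8 libraries alone. Of the 908, 347 were called in all of the main model, the block, the 8 libraries alone and the fit without vehicle replicate 3. With other pseudocounts, filters, weights, variances or scalings the count was 747 to 900. For the agonist step with RNO the count of 1506 was 2564 with the block and 1200 to 1391 when 1 of its libraries was left out. No gene called and named in the report changed direction under any of these settings. The cause of these shifts was not tested. With 4 libraries a group, 1 cell line, 1 time point and no read counts, the depth behind low TPM values is unknown.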
